A study of Homo sapiens with 6 samples.

Results

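Core histones (H2A, H2B, H3 and H4) form the protein spool of the nucleosome, and linker histones (H1) bind the DNA between spools. On the Affymetrix HG-U133 Plus 2.0 array the annotation named 21357 genes, and 73 of them were core and linker histones read by 89 of the 54675 probe sets, which were followed in HT29 cells treated with NS398. The rule that picked the members reads gene symbols and no signals: each of the 89 named only histone genes, 72 of them clustered histones (65 genes) and 17 variants (8 genes). A single gene was named by 69 members and several genes by the other 20, and the coding sequences of the clustered copies are known to be almost identical. The counts below are therefore counts of probe sets, and probe sets of 1 gene, or of genes that share sequence, are not independent.

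HT29 is a human colon adenocarcinoma cell line, and NS398 is a selective inhibitor of cyclooxygenase-2, the inducible enzyme that makes prostaglandin precursors. There were 6 arrays, 3 from NS398-treated cells and 3 from control cells, and no other allele, agent or time was part of the comparison. By the study's methods the treated cells had the highest of its listed NS398 concentrations for several days in serum-free medium, the controls had the DMSO vehicle in the same medium, and the 3 samples of each group were biological replicates. A single cell line and a single dose stand behind every value.

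Clustered histone genes are known as replication-dependent genes. They are transcribed in S phase, and their mRNAs usually end in a stem-loop in place of a poly(A) tail. Labelling that starts from an oligo(dT) primer therefore reads chiefly the polyadenylated share of these transcripts, so a signal here is not the total histone mRNA. Variant genes such as those of H2A.Z and H3.3 stand outside the clusters, make polyadenylated mRNA and are transcribed throughout the cell cycle, and H2AX can yield both kinds of transcript. In bulk RNA, fewer cells in S phase and less mRNA per S-phase cell cannot be told apart.

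The promoters of 6 genes are shown here because the results turn on their probe sets: H2AX and H2AZ2, which fell; H2BC8 and H4C11, clustered genes with called probe sets; H2AC25, the clustered gene that rose; and H2AC6, whose call depended on 1 control array. Each window holds 300 bases of GRCh38.p14 from RefSeq, written from 5′ to 3′, with 250 bases before the transcription start and 50 from it on. Capitals mark matches to the TATA box letters TATAAA, to the letters CCAAT of the CCAAT box, to the octamer of histone promoters (ATTTGCAT), and to any of 3 E2F-type words, spelled TTTCCCGC in one form, TTTGGCGC in another and TTTCGCGC in the last. All were searched on both strands, and overlapping matches were each counted.
H2AX, chr11:119095416-119095715, minus strand: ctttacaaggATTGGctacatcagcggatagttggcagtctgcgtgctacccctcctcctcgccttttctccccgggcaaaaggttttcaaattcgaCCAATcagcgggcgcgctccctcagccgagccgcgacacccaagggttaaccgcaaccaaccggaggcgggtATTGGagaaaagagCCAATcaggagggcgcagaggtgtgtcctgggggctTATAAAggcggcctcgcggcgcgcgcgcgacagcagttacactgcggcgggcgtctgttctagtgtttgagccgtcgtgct
H2AZ2, chr7:44848038-44848337, minus strand: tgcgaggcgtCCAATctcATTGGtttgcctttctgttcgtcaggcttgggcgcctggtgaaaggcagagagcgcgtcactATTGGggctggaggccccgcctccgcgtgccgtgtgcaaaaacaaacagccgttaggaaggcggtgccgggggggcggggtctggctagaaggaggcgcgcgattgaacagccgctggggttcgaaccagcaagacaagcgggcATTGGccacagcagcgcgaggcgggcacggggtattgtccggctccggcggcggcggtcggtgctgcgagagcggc
H2BC8, chr6:26216639-26216938, minus strand: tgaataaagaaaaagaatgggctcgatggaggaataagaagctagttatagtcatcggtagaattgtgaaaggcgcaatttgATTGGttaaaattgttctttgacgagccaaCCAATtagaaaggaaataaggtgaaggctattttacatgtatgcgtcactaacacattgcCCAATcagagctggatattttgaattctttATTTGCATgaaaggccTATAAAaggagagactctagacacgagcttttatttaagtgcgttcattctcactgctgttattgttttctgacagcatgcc
H4C11, chr6:27823842-27824141, plus strand: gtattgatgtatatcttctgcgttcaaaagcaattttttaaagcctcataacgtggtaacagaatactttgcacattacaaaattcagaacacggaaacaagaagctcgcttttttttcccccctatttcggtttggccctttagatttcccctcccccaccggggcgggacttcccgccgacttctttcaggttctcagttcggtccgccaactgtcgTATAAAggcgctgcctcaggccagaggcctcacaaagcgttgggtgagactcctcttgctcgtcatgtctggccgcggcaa
H2AC25, chr1:228457824-228458123, minus strand: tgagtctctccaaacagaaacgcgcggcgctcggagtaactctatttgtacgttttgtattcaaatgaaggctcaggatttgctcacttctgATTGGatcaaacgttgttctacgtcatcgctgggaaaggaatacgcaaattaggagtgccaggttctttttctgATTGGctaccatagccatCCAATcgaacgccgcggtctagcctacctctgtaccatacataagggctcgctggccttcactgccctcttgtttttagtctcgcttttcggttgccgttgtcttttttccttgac
H2AC6, chr6:26123922-26124221, plus strand: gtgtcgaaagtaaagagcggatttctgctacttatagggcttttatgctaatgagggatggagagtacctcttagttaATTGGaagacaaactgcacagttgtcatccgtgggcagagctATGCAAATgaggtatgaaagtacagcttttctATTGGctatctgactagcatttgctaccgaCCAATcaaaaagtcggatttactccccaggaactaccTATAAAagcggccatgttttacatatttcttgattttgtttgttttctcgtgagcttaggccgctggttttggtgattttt
The octamer stands between CCAAT and TATAAA in H2BC8, is also in H2AC6, and is in neither variant window. The window of H2AC6 overlaps that of H2BC4 on the opposite strand, as these neighbours are divergently transcribed. Over the clustered genes, 57 of 65 matched the table with 61 windows. TATAAA was in 65.6% of them, CCAAT in 83.6%, the octamer in 37.7% and an E2F-type match in 21.3%. Over all 35116 windows of the table the shares were 11.5%, 34.6%, 1.77% and 2.74%. For the variants, 7 of 8 genes matched with 11 windows, of which 27.3% held TATAAA, 72.7% held CCAAT and 0 held the octamer or an E2F-type match. By family, the octamer was in 77.8% of 18 H2B windows, 61.5% of 13 H2A windows and 0 of 13 H4 windows, while CCAAT was in 100% of H2B and in 23.1% of H4 windows. These shares count some sites more than once. Windows of H2A and H2B neighbours can overlap, so the octamer of H2BC8 is also that of H2AC8. H2BC5 and H2BC12 each have windows that differ by a few bases, and the same window is listed for H2AC7 and H3C4. These letters describe sequence only, and no binding was measured.

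Signals are the deposited intensities on a linear scale. The 2%-trimmed mean, computed for control replicate 1 only, was 500. Differences are means of log2 signal in NS398 minus control with their standard errors, and a probe set was called at an adjusted p under 0.05 by a limma test with a variance trend, adjusted by the Benjamini-Hochberg method over all 54675 probe sets. A probe set is called bright where its log2 signal averaged over 7 (a signal of 128) and dim otherwise; levels are not compared between probe sets. Plain limma, without the variance trend, called 0 of the 89 and 24 of all probe sets at the same threshold, with 23 of the 89 and 7957 of all at an unadjusted p under 0.05. Directions follow the sample labels, and for several histone probe sets, among them those of H2AX, H2AZ2, H2BC8 with H2BC11 and the H4 genes described below, they run opposite to a list published with the study. The reason was not tested, and every direction below rests on the labels.

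Of 10 epithelial markers 8 were bright, with the intestinal factors CDX1 and CDX2 dim at control mean signals of 25.9 and 46.0, and of 9 measured markers of other cell types 3 were bright, with a median control signal of 39.8. Of the latter only LUM (lumican) rose, from a mean signal of 45.5 to 215. Of the epithelial markers 3 changed: CEACAM5 rose from 463 to 7862 and the differentiation keratin KRT20 rose 2.22-fold, while VIL1 fell 1.63-fold. RNA integrity and labelling, read as ACTB signal at the 3′ end over that at the 5′ end, did not overlap between the groups: the mean ratio was 1.29 (SD 0.03) over the 3 control arrays and 1.56 (SD 0.13) over the 3 treated ones (exact permutation test, p = 0.1, the smallest possible). By the same exact permutation test, the ratio for GAPDH overlapped (1.03 against 1.10, p = 0.5), as did the 18S ribosomal signal (means of 4031 and 13616, p = 0.2). The part of these measures in the histone differences was not tested. Control replicate 1 stood apart for clustered histones: it was the lowest control array in 18 of 21 bright clustered probe sets (85.7%), against 40.9% of all 22399 bright probe sets and 1 of 11 bright variant probe sets. Results that rest on it are given with and without it.

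The largest decrease among bright histone probe sets was that of a variant, H2AX, at -1.67, while bright clustered probe sets ran from -1.40 to 1.14. Of the 17 variant probe sets 6 fell (35.3%), none rose, and the 6 belonged to only 2 genes, H2AZ2 with 4 and H2AX with 2. The background was 3.17% of all probe sets called lower and 3.26% called higher (1731 and 1782, or 1943 and 864 after each array was centred on its median). Among bright probe sets 6 of 11 variants fell (54.5%), against 7.29% called lower and 7.27% called higher of all bright ones. The median difference was -0.31 over the 17 and -0.69 over the 11 bright, against 0.06 over all probe sets and 0.01 over all bright ones. Without control replicate 1 the count was again 6.

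H2AX, the H2A form that is phosphorylated around DNA breaks, had the lowest adjusted p of all members. Its probe set 205436_s_at read 9192, 7326 and 7508 in the control arrays and 1950, 2738 and 2918 in the NS398 arrays. Every treated array lay far below every control array, and the difference was -1.67 ± 0.15 (adjusted p = 1.38e-04), a 3.19-fold decrease. A second H2AX probe set, 212525_s_at, read 1939, 901 and 1021 in control and 376, 544 and 362 in NS398 arrays, and fell by 1.53 ± 0.27 (adjusted p = 0.00634). Its groups did not overlap either, although control replicate 1 lay well above the other two, and without that array the difference was -1.19 (adjusted p = 0.00726). The third, 213344_s_at, was close to the brightness limit, with 185, 150 and 201 against 147, 135 and 168, and did not pass (-0.24 ± 0.25, adjusted p = 0.686). The fourth, 212524_x_at, was dim on all 6 arrays, between 7.2 and 43.8, and gave a difference of 0.02 with no settled sign.

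**Figure D1:**
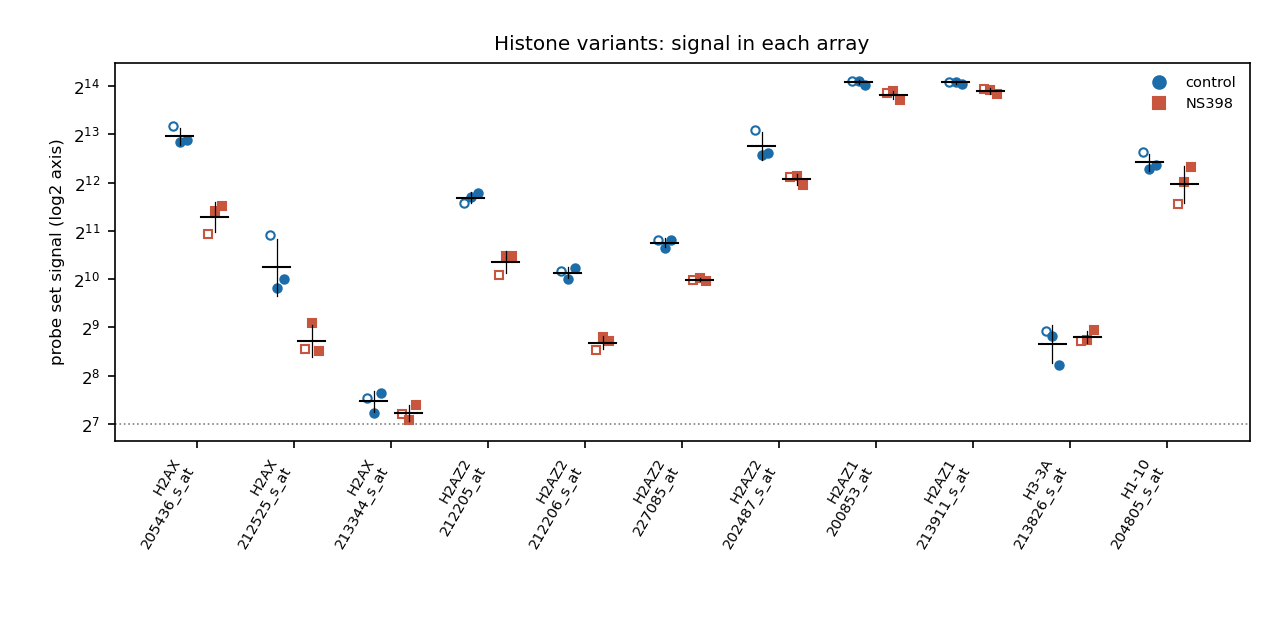
Signal of the 11 bright variant probe sets (log2 axis) in 3 control arrays (blue circles) and 3 NS398 arrays (red squares), with replicate 1 of each group drawn open. Horizontal bars are means of log2 signal, vertical lines are ± 1 SD, and the dotted line is the brightness limit of 128; the groups are apart for 2 of 3 H2AX and for all 6 H2A.Z probe sets, while H3-3A and H1-10 overlap.

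H2A.Z replaces H2A in nucleosomes near transcription starts and is encoded by a gene pair, H2AZ1 and H2AZ2. All 6 H2A.Z probe sets were lower in NS398 without overlap of the groups, against a background of 10.8% of all probe sets that separated downward and 13.4% upward, but only the 4 of H2AZ2 passed the test. The probe set 212205_at of H2AZ2 read 3064, 3316 and 3550 in control and 1082, 1432 and 1427 in NS398 arrays, a difference of -1.34 ± 0.14 (adjusted p = 2.65e-04). The probe set 212206_s_at went from 1145, 1029 and 1196 to 370, 443 and 423, a difference of -1.45 ± 0.15 (adjusted p = 2.88e-04). These 2 probe sets thus fell 2.54-fold and 2.73-fold, and no treated array reached a control array.

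The other 2 H2AZ2 probe sets fell by less. The signals of 227085_at were 1798, 1596 and 1805 in control and 1007, 1035 and 997 in NS398 arrays (-0.77 ± 0.12, adjusted p = 0.00307). Those of 202487_s_at were 8707, 6081 and 6233 against 4441, 4501 and 3940 (-0.69 ± 0.14, adjusted p = 0.0127). This last call was lost without NS398 replicate 3, at an adjusted p of 0.0590. The 4 probe sets of this 1 gene therefore share a direction but span 1.61-fold to 2.73-fold, and which transcript forms each of them reads is not given in the sources used here.

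Neither probe set of H2AZ1 was called. The first, 200853_at, read 17709, 17505 and 16749 in control and 14743, 15159 and 13414 in NS398 arrays, a 1.20-fold difference that missed the threshold (-0.26 ± 0.08, adjusted p = 0.102). The second, 213911_s_at, read 17497, 17388 and 16938 against 15632, 15540 and 14588 (-0.18 ± 0.08, adjusted p = 0.254). Both passed after quantile normalisation and under no other setting tried. To compare the pair directly, the log2 ratio of H2AZ2 (212205_at) to H2AZ1 (200853_at) was taken within each array. It was lower by 1.08 in NS398 arrays (SD 0.15 in control, 0.27 in NS398, n = 3 each), and the groups did not overlap (two-sided exact permutation test, p = 0.1, the smallest that 3 against 3 arrays allow, also after adjustment over the 5 ratios compared). Treated the same way, the ratio of H2AX (205436_s_at) to the only H3-3A member, 213826_s_at, was lower by 1.83 in NS398 arrays. That of H2AX 205436_s_at to the third H2AX probe set was lower by 1.43. Both were without overlap and had the same p. These 5 ratios were chosen after the values were seen. Each sets a probe set that fell against one that was not called lower, so their separation adds no independent support. The H2AZ2 probe set used had a difference of -1.34, against -1.45 for 212206_s_at, -0.77 for 227085_at and -0.69 for 202487_s_at. No ratio to H2AZ1 was taken for those other H2AZ2 probe sets, so the size of the gap rests on the probe set chosen.

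H3.3, the H3 form laid down outside replication, is encoded by H3-3A and H3-3B. Only 1 member probe set read it, 213826_s_at of H3-3A, with 489, 449 and 296 in control and 423, 430 and 494 in NS398 arrays. The groups overlapped and the difference was 0.16 ± 0.21 (adjusted p = 0.772), with a sign that turned to -0.07 without control replicate 3. A further 8 probe sets name both H3.3 genes together with a pseudogene or a microRNA and so lie outside the members. All 8 were bright, with control means from 4166 to 42585, all 8 were lower in NS398 without overlap, and 3 fell: 209069_s_at (-0.41), 211999_at (-0.43) and 211998_at (-0.97; adjusted p = 0.0175, 0.0328 and 0.0497). Their median difference was -0.42. The background was 10.8% of all probe sets separated downward and 7.29% of all bright ones called lower. As the 8 name the same H3.3 genes, they are repeated readings and not independent results.

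Among linker variants, H1-10 read 6310, 4963 and 5285 in control and 3023, 4157 and 5128 in NS398 arrays. The treated arrays were spread widely and reached into the control range (-0.45 ± 0.17, adjusted p = 0.173). The germ cell and oocyte linker genes H1-7 and H1-8 and the pseudogene H1-9P were dim, with 5 probe sets between 3.8 and 46.3, and none was called. These dim signals set no level for the genes.

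The clustered histones showed a sparser picture. Of 72 probe sets 6 fell (8.33%) and 1 rose (1.39%), against 3.17% and 3.26% of all probe sets. Of the 21 bright ones 4 fell and 1 rose, against 7.29% and 7.27% of all bright ones. The groups were apart downward in 14 (19.4%) and upward in 5 (6.94%), against 10.8% and 13.4% of all probe sets. Of the 72 differences 43 were below 0, and the median was -0.46 (-0.49 over the bright ones). It was -0.27 without NS398 replicate 3, -0.29 without control replicate 2 and -0.24 with an offset of 32 added to each signal. The number that fell was 8 without control replicate 1, 2 without control replicate 2, 2 without control replicate 3, 2 without NS398 replicate 1 and 3 without NS398 replicate 3. The variant count was 5 without NS398 replicate 3 and 6 without any other single array. The remaining 51 were dim, with a median within-group SD of 0.74 against 0.28 in the bright ones, and only 2 of them were called.

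**Figure D2:**
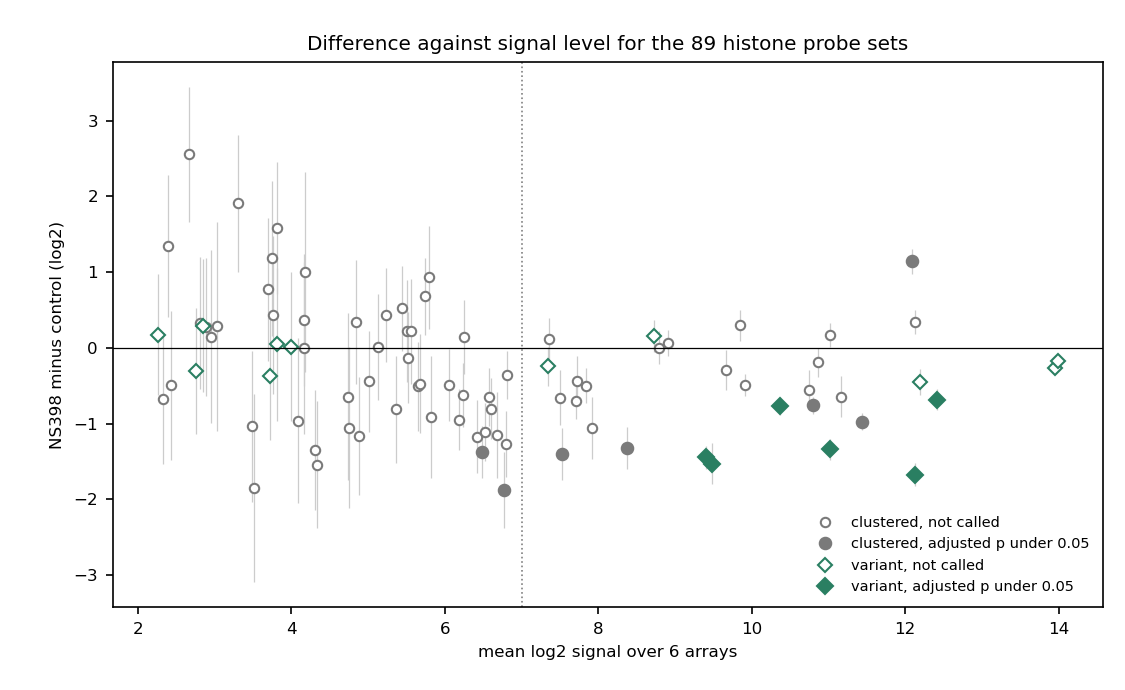
Difference in log2 signal (NS398 minus control) against the average log2 signal of the 6 arrays for the 89 histone probe sets, with vertical lines of ± 1 SE. Circles are clustered and diamonds variant probe sets, filled where the adjusted p was under 0.05, and the dotted line marks 7 on that axis; the 12 filled points below 0 and the 1 above it lie mostly to the right of that line, and the dim probe sets scatter widely on both sides of 0.

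H4, which pairs with H3 in the centre of the nucleosome, gave the firmest clustered decrease. The probe set 205967_at names 14 H4 genes at once and read 4016, 3526 and 4194 in control and 1898, 1973 and 2078 in NS398 arrays. The treated arrays lay close together and well below every control, with a difference of -0.98 ± 0.11 (adjusted p = 4.71e-04), a 1.97-fold decrease, and the call was kept in all 12 alternative settings outside plain limma. Which of the 14 genes gave the signal cannot be told apart. Of the other 15 H4 probe sets, all dim, H4C11 (214463_x_at) fell from 148, 255 and 242 to 53.6, 27.6 and 125 (-1.88 ± 0.50, adjusted p = 0.0498). This call was at the threshold and was lost when any 1 array other than NS398 replicate 3 was left out, with adjusted p from 0.0538 (without control replicate 1) to 0.183 (without control replicate 3). The dim probe sets that name the same 14 genes as 205967_at were not called. They were 208580_x_at (-1.27, adjusted p = 0.125), 214516_at (-1.86, adjusted p = 0.485), 207046_at (-0.47, adjusted p = 0.773) and 208181_at (0.29, adjusted p = 0.947).

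H2A had 16 clustered probe sets, of which 1 fell and 1 rose. The probe set 214290_s_at of H2AC18 and H2AC19, a duplicated pair on chromosome 1, read 2213, 2321 and 2440 in control and 1495, 1302 and 1323 in NS398 arrays (-0.76 ± 0.12, adjusted p = 0.00278). Both other probe sets of this pair were below 0 and missed the threshold, 218280_x_at at -0.49 (adjusted p = 0.0787) and 218279_s_at at -1.17 (adjusted p = 0.211). Without control replicate 1, 218280_x_at passed at -0.62 (adjusted p = 0.0171).

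H2AC25 was the only member that rose. Its probe set 221582_at read 2134, 3377 and 3462 in control and 6264, 6631 and 6467 in NS398 arrays. All 3 treated arrays lay above all controls, and the difference was 1.14 ± 0.16 (adjusted p = 0.00197), a 2.21-fold increase. Without the low control replicate 1 the difference was 0.92 (adjusted p = 3.49e-04). The gene has a further probe set, 231681_x_at, which was dim and gave -0.92 (adjusted p = 0.621), so the rise rests on 1 probe set. Within arrays, the log2 ratio of the H2AC18 and H2AC19 probe set to that of H2AC25 was lower by 1.90 in NS398 without overlap (two-sided exact permutation test, p = 0.1, the smallest possible). This ratio, too, was chosen after the values were seen and adds no independent support.

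For H2AC6 and H2BC5, 1 array decided the call. H2AC6 (215071_s_at) read 1633, 3748 and 3836 in control and 1928, 1877 and 1701 in NS398 arrays. Control replicate 1 lay below all treated arrays, the other controls lay far above them, and the difference over all arrays was -0.64 ± 0.27 (adjusted p = 0.217). Without that control it was -1.05 (adjusted p = 4.72e-04). In both H2BC5 probe sets control replicate 1 again lay below every other array: 222067_x_at read 1194, 2826 and 2674 against 1397, 1471 and 1364 (-0.56, adjusted p = 0.292) and moved to -0.96 (adjusted p = 8.59e-04), and 209911_x_at moved from -0.19 (adjusted p = 0.676) to -0.45 (adjusted p = 0.0393).

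H2B, the partner of H2A, had 20 clustered probe sets, of which 3 fell and none rose. Of these, 2 read H2BC8 and H2BC11 together. The first, 210387_at, went from 372, 706 and 560 to 160, 285 and 205 (-1.33 ± 0.28, adjusted p = 0.0160), and the second, 215779_s_at, from 187, 426 and 335 to 111, 154 and 84.6 (-1.40 ± 0.34, adjusted p = 0.0328). The groups did not overlap, with control replicate 1 again the lowest control. Each call held in 8 of 12 settings and was lost without control replicate 2, control replicate 3, NS398 replicate 1 or NS398 replicate 3. The dim probe set 236193_at of H2BC4 went from a mean signal of 144 over the controls to 53.1, 67.2 and 47.9 in the treated arrays, without overlap (-1.38 ± 0.34, adjusted p = 0.0366). It lost its call when any 1 array was left out, and without control replicate 1 the adjusted p was 0.0695. Further probe sets that name H2BC4 and H2BC8 among other H2B genes were not called. They were the bright 208490_x_at (0.06, adjusted p = 0.901) and 208523_x_at (-0.43, adjusted p = 0.549) and the dim 214455_at (-0.80, adjusted p = 0.323). Nor was the dim probe set 214502_at, which names H2BC11 alone (-1.35, adjusted p = 0.414).

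Of the 11 bright H2B probe sets 6 had differences below 0. H2BC12 (209806_at), the H2B probe set with the highest mean signal, read 3042, 4244 and 4919 in control and 5483, 4788 and 4941 in NS398 arrays (0.34 ± 0.16, adjusted p = 0.274). H2BC12L (208579_x_at) was counted as clustered by its current symbol alone. It read 1491, 2241 and 2249 against 2138, 2199 and 2264 (0.17, adjusted p = 0.651), and gave -0.03 without control replicate 1. The log2 ratio of 210387_at (H2BC8 and H2BC11) to the H2BC12 probe set was lower by 1.67 in NS398 arrays without overlap (two-sided exact permutation test, p = 0.1, the smallest possible). It was also chosen after the values were seen and is no separate support. The promoter windows of H2BC12 hold each of the 4 kinds of letters searched, as does that of H2BC11. That of H2BC8 holds no E2F-type match.

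**Figure D3:**
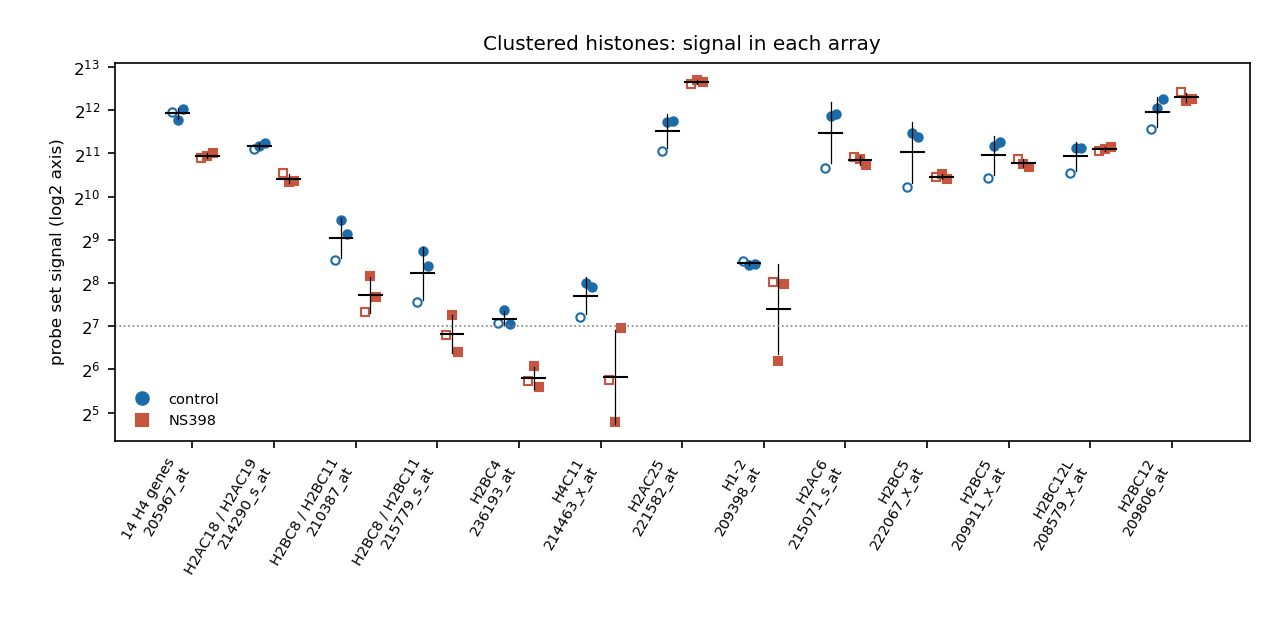
Signal of 13 clustered histone probe sets (log2 axis) in 3 control arrays (blue circles) and 3 NS398 arrays (red squares), replicate 1 drawn open, with means and ± 1 SD of log2 signal. The first 6 fell and H2AC25 rose; the last 6 were not called, and for H2AC6, H2BC5, H2BC12L and H2BC12 the open control circle lies below both other controls.

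H3 and the clustered H1 genes gave no call. Of 11 H3 probe sets 2 were bright, both of H3C6, at -0.66 (236278_at, adjusted p = 0.377) and 0.12 (214616_at, adjusted p = 0.874). Among the 9 dim ones the groups were apart downward in 1 and upward in 2, and none was called. H3C7 (208506_at) gave 2.55 (adjusted p = 0.136) and H3-4 (208572_at) gave 1.58 (adjusted p = 0.377), from control signals of at most 13.7. The probe set 206110_at, which names 10 H3 genes, read 96.2, 186 and 140 in control and 61.8, 83.7 and 47.7 in NS398 arrays, apart but short of the threshold (-1.11 ± 0.39, adjusted p = 0.134). Of 7 H1 probe sets only that of H1-2 was bright, with 363, 342 and 347 against 260, 72.7 and 252. Its groups were apart, 1 treated array lay far below the rest, and the difference was -1.06 ± 0.41 (adjusted p = 0.188). H3C6, H3C7, H3-4, the 10-gene H3 probe set and H1-2 are named here after their values were seen.

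Set side by side, the share of probe sets that fell was 35.3% in the variants and 8.33% in the clustered genes, and among bright ones 6 of 11 and 4 of 21, but no test of the difference between the classes was made. Of the clustered probe sets 51 of 72 were dim. Of the 52 clustered probe sets that name 1 gene, 2 fell (3.85%) and 1 rose (1.92%), close to the 3.17% and 3.26% of all probe sets. Their median was -0.07, and of the 14 bright ones among them 0 fell and 1 rose. Thus 4 of the 6 clustered decreases came from probe sets naming several genes. Of 16 members whose identifiers end in x_at, the mark of probes that can match other sequences too, 1 fell (6.25%, against 3.17% of all probe sets). H2AZ2 and H2AX supplied all decreases among the variant members, and H2AZ1, H3-3A and H1-10 did not pass. H3-3A was read there by 1 probe set, and 3 of the 8 probe sets outside the members that name both H3.3 genes fell.

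The genes that make, process and carry histones, with a last list of histone variants outside the members (CENPA among them), are together called supply genes. They were read from 5 lists of 80 genes. Of these, 71 were measured by a probe set of their own, the one with the highest mean signal. In all 21 fell, 3 rose and 47 were not called, and 70 of the 71 were bright, for which the background was 7.29% called lower and 7.27% called higher. Of 24 measured genes of histone gene transcription and mRNA 3′ end processing, 7 fell and 1 rose, with a median of -0.19. CCNE2, cyclin E2, which drives entry into S phase, read 423, 290 and 337 in control and 66.6, 127 and 94.9 in NS398 arrays (-1.89 ± 0.29, adjusted p = 0.00294). Its kinase partner CDK2 and the transcription factor E2F1 fell 1.96-fold and 2.01-fold (adjusted p = 0.00943 and 0.0126), the latter call being lost without control replicate 2 or NS398 replicate 1 (adjusted p up to 0.0584). NPAT, the coactivator of clustered histone genes (-0.62), and SLBP, which binds the histone mRNA stem-loop (-0.41), also fell (adjusted p = 0.0421 and 0.0348). These last 2 calls held only without control replicate 1 among the 6 fits that each left out 1 array (adjusted p up to 0.184 and 0.137). LSM10, a subunit of the U7 particle that cuts histone pre-mRNA, rose by 0.78 (adjusted p = 0.00268).

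The list of chaperones that deliver H3 and H4 at replication forks had the lowest median of the lists, at -0.64, with 8 of 14 genes fallen and 1 risen. It also holds genes with other main roles, among them PCNA, MCM2, HAT1 and IPO4, which are part of these counts. ASF1B, which hands H3 and H4 on for assembly, read 2294, 1479 and 1520 in control and 291, 540 and 619 in NS398 arrays (-1.91 ± 0.27, adjusted p = 0.00170). MCM2, a helicase subunit that also binds H3 and H4, fell by 1.60. Decreases were also called for CHAF1B of the chromatin assembly factor (-1.31), NASP (-1.26), the sliding clamp PCNA (-0.95) and the H4 acetyltransferase HAT1 (-0.85). The importin IPO4 rose by 0.58 (adjusted p = 0.0389). Of these genes, CHAF1B lost its call without control replicate 1 or 3 or NS398 replicate 1 or 3 (adjusted p up to 0.0808), and IPO4 lost it when any 1 array other than control replicate 1 was left out (up to 0.150).

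**Figure D4:**
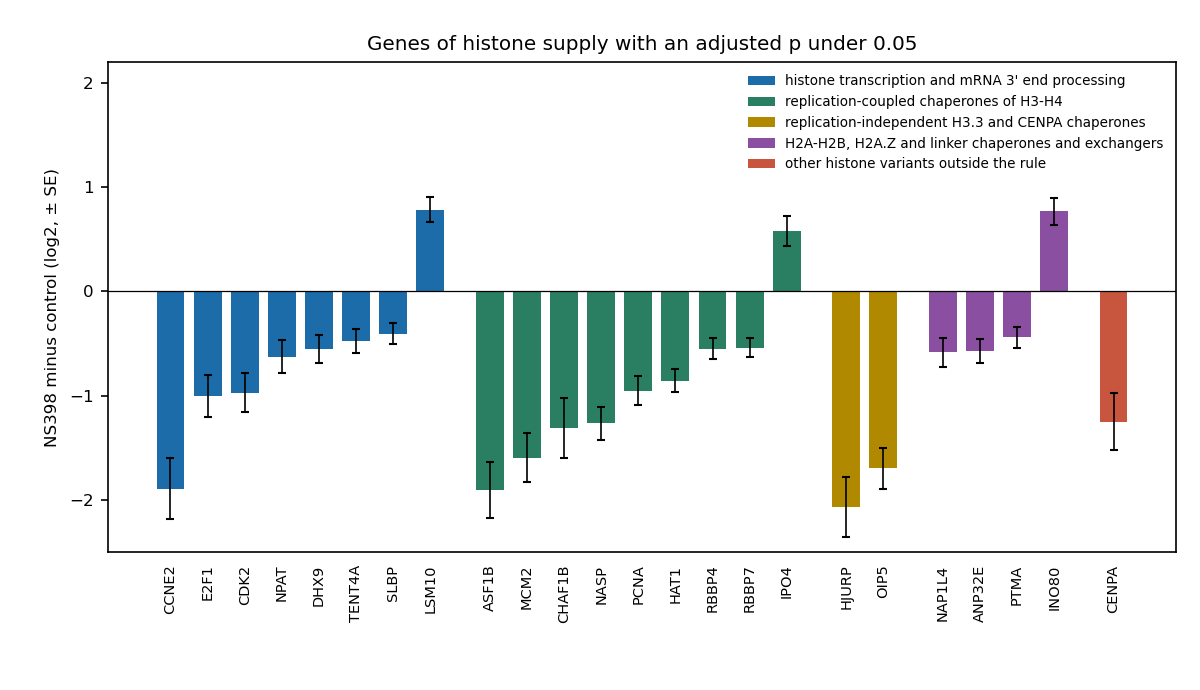
Difference in log2 signal (NS398 minus control, bars from 0, with ± 1 SE) of the 24 histone supply genes with an adjusted p under 0.05, coloured by list and ordered by size within each. CENPA, itself a histone variant, is among them. The 21 bars that point down reach -2.07 (HJURP), and the 3 that point up are LSM10, IPO4 and INO80.

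Of 9 measured chaperones of H3.3 and CENPA, 2 fell, both of the centromere branch: HJURP (-2.07) and OIP5 (-1.70; adjusted p = 0.00165 and 5.56e-04). Neither lays down H3.3. CENPA itself, the H3 form of centromeres, read 841, 379 and 531 in control and 197, 269 and 238 in NS398 arrays (-1.25 ± 0.27, adjusted p = 0.0198), and was the only 1 of 4 measured variants outside the members that fell. Its call was lost without control replicate 3, NS398 replicate 1 or NS398 replicate 3 (adjusted p up to 0.0874). Of 20 chaperones and exchangers of H2A, H2B, H2A.Z and linker histones, 3 fell and 1 rose, with a median of -0.05. The 3 were the H2A.Z chaperone ANP32E (-0.57), PTMA (-0.44) and NAP1L4 (-0.58), and the remodeller subunit INO80 rose by 0.77 (adjusted p = 0.0145, 0.0213, 0.0274 and 0.00462). Leaving out 1 array ended the call of ANP32E in 2 of 6 cases (control replicate 3, NS398 replicate 1), of PTMA in 3 (control replicate 2, NS398 replicates 1 and 2) and of NAP1L4 in 3 (control replicate 3, NS398 replicates 1 and 3), and that of INO80 in none. For NAP1L1, NPM1 and CHAF1A, probe sets other than the one read here were called, 2 lower for NAP1L1, 2 higher for NPM1 and 1 lower for CHAF1A. Among supply genes named above as called, the call came from 1 of 3 probe sets for NPAT and 1 of 2 for E2F1, PTMA and INO80. It came from 2 of 5 for NAP1L4, 2 of 3 for CDK2, NASP and ANP32E, and 2 of 2 for CCNE2.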

How the data were processed

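The series holds 6 HG-U133 Plus 2.0 arrays. The authors deposited linear probe set intensities between 0.1 and 80608.2, with a 2%-trimmed mean of 500 in control replicate 1, the only array for which it was computed. The study's methods describe gcRMA, which these unlogged intensities do not resemble; the submitters' notes name affy, with no version. The number of arrays limits the precision. Probe sets were named through GEO's platform annotation, with symbols updated by RefSeq: 41097 named 1 gene, 1801 several and 11777 none. Probe sets were tested in log2 with no further normalisation, using limma 3.58.1 in R 4.3.3 (lmFit, eBayes with trend and robust), with treatment alone as a term and Benjamini-Hochberg adjustment over 54675 probe sets. The test was checked only on simulated arrays with independent noise for each probe set. These hold no noise shared across an array, so the check does not bear on the difference from plain limma. Single values were tested by two-sided exact permutation of the 6 arrays. Python 3.11.15, pandas 2.3.3 and matplotlib 3.10.9 served tables and plots. Alternatives were plain limma, an unadjusted p under 0.05 with 2-fold change, median centring, quantile normalisation, a filter at mean log2 signal 7, an offset of 32, array weights, a replicate block, the mean over the probe sets of a gene (supply genes only) and leaving out each array.

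Members, lists and tests were chosen with earlier results of these data known. By rule the text names every variant probe set, clustered probe sets that were called, the 5 with the highest mean signal not called, and up to 4 called genes with the smallest p per supply list; other genes are named after their values were seen. An antisense probe set was left out (1). Protein sequences were not analysed here.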

Additional observations from a re-analysis of the deposited data

How the results depend on the processing

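Plain limma, without a variance trend, called 24 probe sets in all; it called 0 clustered histones lower, 0 higher, 0 variants lower, 0 of the named histone probe sets, and 0 supply genes lower or higher, with 23 members and 7957 probe sets at an unadjusted p under 0.05. An unadjusted p under 0.05 with 2-fold change gave 4 clustered probe sets higher, 9 supply genes lower and 0 higher, and array weights gave 5 supply genes higher. The filter on signal moved the variant median to -0.69. Leaving out 1 array at a time gave 2 to 8 clustered probe sets lower, 11 to 19 supply genes lower, 1826 to 3984 probe sets called in all, and variant medians from -0.63 to -0.26. Median centring shifted all differences by 0.12 and changed the calls over the array from 1782 higher and 1731 lower (50.7% higher) to 864 higher and 1943 lower (30.8% higher). Among the named probe sets, signs turned only in some that were not called: after median centring, quantile normalisation and array weights H2AX 212524_x_at gave -0.11, -0.14 and -0.28 and H1-7 236876_at gave -0.075, -0.070 and -0.13, while H1-7 238373_at gave -0.00097 after quantile normalisation. With 1 array left out they ran from -0.71 to 0.56 in H2AX 212524_x_at, -0.80 to 0.87 in H1-7 236876_at, -0.065 to 0.30 in H3-3A (213826_s_at) and -0.029 to 0.27 in H2BC12L (208579_x_at). Same-numbered control and NS398 arrays did not deviate from their group means together (correlations -0.137, -0.0633 and -0.104). With 3 arrays per group, this cannot show whether the samples were paired. The replicate block gave 5 clustered and 6 variant probe sets lower, 16 supply genes lower and 2462 calls in all. The cause of these shifts was not tested.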
